A study of Mus musculus with 12 samples.

Results

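The 8 genes described here encode enzymes of cholesterol synthesis: Hmgcs1 (Gene ID 208715), Idi1 (319554), Fdps (110196), Fdft1 (14137), Sqle (20775), Cyp51 (13121), Msmo1 (66234) and Dhcr7 (13360). They were taken by Gene ID from a table of 22221 genes measured in mouse testis. All 8 were found, and all 8 passed the filter of at least 1 FPKM in at least 3 libraries, as did 15472 genes in all. FPKM, fragments scaled by gene length and by the total of the library, is the authors' unit, so levels can be compared between genes. The symbols were chosen as names of pathway enzymes and not by their values, but with earlier results of these data known.

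The samples were testes of ICR mice, which are outbred, and RNA sequencing gave 12 libraries, 3 in each of 4 groups. The Con group had no treatment. The other 3 groups shared 1 dose of busulfan, which alkylates DNA and depletes proliferating germ cells, given at an age of 3 weeks and followed by 2 weeks of treatment and another 3 weeks before collection. Of these, the Sa group got saline, the IMC group got gut microbiota of donors on ddH2O, and the IMA10 group got gut microbiota of donors on alginate oligosaccharide at 10 mg/kg. No label states the age of Con mice, nor is it said whether each library is a different animal. The p-values thus reflect no more than the spread among the samples at hand, which may be technical. In the table the Con columns are named T5WCon and those of the busulfan groups T2_5B, and neither name is explained. What these names mark and lack of treatment cannot be told apart. The study's design text calls the tissue cultured but gives no culture step. The comparison with Con asks what busulfan left in the testis, and the comparisons among busulfan groups ask what the transferred microbiota changed.

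Cells build cholesterol from acetyl-CoA. The early enzymes make mevalonate and join isoprene units into farnesyl diphosphate, which also feeds ubiquinone, dolichol and protein prenylation. Fdft1 and Sqle commit it to squalene and its epoxide, and the late enzymes trim the first sterol, lanosterol, to cholesterol. In most cells SREBP transcription factors turn these genes on together when sterols run low. In the testis, Leydig cells use cholesterol for testosterone, and spermatids make some enzymes from transcripts of their own. The known case is Cyp51, whose germ cell transcripts depend on the factor CREM and whose product is a sterol named for its activity on meiosis. The FPKM values here are per gene, so germ cell and somatic transcripts of Cyp51 cannot be told apart.

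The upstream sequences of 4 members are shown because these genes share known regulators yet moved by unlike amounts. They are the 250 bases before the RefSeq gene start on GRCm38.p6, 5′ to 3′ on the gene's strand. Capitals mark matches on either strand to the core of the sterol regulatory element (TCACNCCAC), the NF-Y box (CCAAT), the Sp1 box (GGGCGG) and a part of the cAMP response element (TGACG), the type of element that CREM binds.
Hmgcs1 (chr13:119690101-119690350, plus strand): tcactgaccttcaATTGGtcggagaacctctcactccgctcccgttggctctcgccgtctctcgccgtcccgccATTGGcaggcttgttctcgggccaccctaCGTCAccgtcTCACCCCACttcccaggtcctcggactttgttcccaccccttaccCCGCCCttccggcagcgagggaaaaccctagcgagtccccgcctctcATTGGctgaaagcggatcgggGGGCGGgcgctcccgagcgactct
Idi1 (chr13:8885356-8885605, plus strand): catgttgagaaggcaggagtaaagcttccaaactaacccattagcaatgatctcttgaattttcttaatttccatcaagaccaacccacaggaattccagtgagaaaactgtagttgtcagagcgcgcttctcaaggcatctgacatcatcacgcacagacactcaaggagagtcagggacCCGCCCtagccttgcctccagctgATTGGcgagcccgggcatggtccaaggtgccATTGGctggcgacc
Cyp51 (chr5:4104698-4104947, minus strand): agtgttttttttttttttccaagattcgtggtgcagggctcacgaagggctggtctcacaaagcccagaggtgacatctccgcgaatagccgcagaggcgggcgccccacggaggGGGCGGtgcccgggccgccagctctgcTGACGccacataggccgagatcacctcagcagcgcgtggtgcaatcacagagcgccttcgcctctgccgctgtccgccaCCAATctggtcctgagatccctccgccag
Msmo1 (chr8:64733579-64733828, minus strand): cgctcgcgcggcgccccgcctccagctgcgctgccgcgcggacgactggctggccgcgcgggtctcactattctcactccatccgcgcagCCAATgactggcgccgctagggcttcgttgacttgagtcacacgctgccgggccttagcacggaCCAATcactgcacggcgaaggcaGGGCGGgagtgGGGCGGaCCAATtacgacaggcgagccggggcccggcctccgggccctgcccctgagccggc
RefSeq windows were matched for 5 of the 8 members, and those of Fdps, Fdft1 and Sqle were not among them. Motifs were counted over 300 bases, which add 50 bases after the start, and no matches to different motifs overlapped. The sterol element core was found in Hmgcs1 alone among the 5, and in 1.24% of all 32851 windows. Hmgcs1 also held 4 NF-Y boxes and 3 Sp1 boxes, Msmo1 held 3 and 2, Idi1 held 2 and 1, and Cyp51 held 1 and 1. Dhcr7 has 3 windows, and the third held 2 NF-Y boxes and 3 Sp1 boxes. Among all windows 37.4% held an NF-Y box and 35.7% an Sp1 box. TGACG was in Hmgcs1 and Cyp51 and in 20.8% of all windows, and the whole element TGACGTCA was in no window of the 5 members and in 1.79% of all. A match is a run of letters and was not tested as a binding site. Only these strings were sought, so a missing match does not show that a gene lacks such an element.

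IMA10 replicate 3 stands apart from its group. Over the 15472 genes that passed the filter, its log2 values correlated with those of Con at 0.923 on average. The other IMA10 libraries had 0.381 and 0.481, and those of Sa and IMC 0.502 to 0.725. Results that rest on it are given with and without it. The fit takes 1 estimate of the spread from all 12 libraries, so this library widens the error in comparisons of other groups too. Read depth is unknown.

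After busulfan and saline, the enzymes did not move as a block. Hmgcs1, Fdps, Msmo1 and Dhcr7 rose in Sa against Con, by 4.75-fold, 1.96-fold, 15.1-fold and 14.0-fold as ratios of group means. Fdft1 fell to 0.407 of its Con mean. Sqle (0.725), Cyp51 (1.68) and Idi1 (0.868) did not pass the test. So 4 of 8 enzymes rose and 1 fell (limma on log2(FPKM + 1), adjusted p under 0.05), while 52.0% of all genes tested were higher and 19.2% lower. The share of members that rose is near that of all genes. The median log2 fold change of the 8 was 0.81, beside 0.60 over all genes. Leaving out IMA10 replicate 3, 5 rose and 2 fell, against 55.7% and 30.0% of all genes, since Cyp51 and Sqle then passed.

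**Figure D1:**
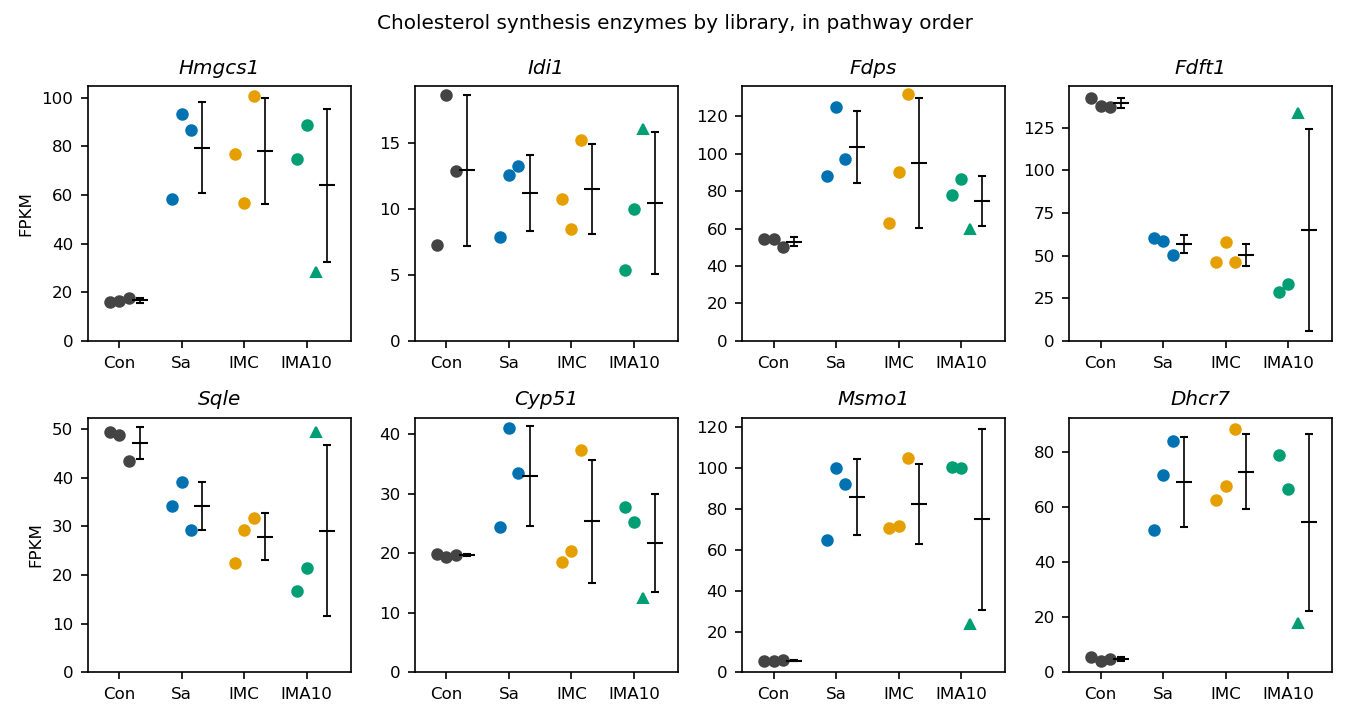
FPKM (vertical axes, from 0) of the 8 enzymes in the 12 libraries, 3 points per group (horizontal axis), with the group mean and SD as a bar beside them; the triangle is IMA10 replicate 3. Msmo1 and Dhcr7 lie between 4.18 and 5.88 in all Con libraries and between 51.6 and 105 in the 8 busulfan libraries other than IMA10 replicate 3, while Fdft1 is highest in Con and in IMA10 replicate 3.

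The order of the levels changed with it. In Con, Fdft1 was the most abundant of the 8 at 139 ± 2.93 FPKM (SD, n = 3), followed by Fdps at 52.9 ± 2.41, Sqle at 47.1 ± 3.27, Cyp51 at 19.7 ± 0.20, Hmgcs1 at 16.7 ± 1.02, Idi1 at 12.9 ± 5.70, Msmo1 at 5.69 ± 0.27 and Dhcr7 at 4.93 ± 0.74. In that order Hmgcs1 overlapped with Idi1 and Msmo1 with Dhcr7. In Sa, Fdps led at 103 ± 19.2 FPKM, with Msmo1 at 85.8 ± 18.4, Hmgcs1 at 79.5 ± 18.6, Dhcr7 at 69.1 ± 16.4 and Fdft1 at 56.6 ± 5.25, each overlapping with the next. Below them came Sqle at 34.2 ± 4.89 and Cyp51 at 33.0 ± 8.35, which overlapped, and Idi1 at 11.2 ± 2.90. Msmo1 thus moved from the seventh to the second place, and Fdft1 from the first to the fifth. IMC kept the order of Sa.

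Among the early enzymes, Hmgcs1 condenses acetyl-CoA with acetoacetyl-CoA in the cytosol. Its FPKM was 15.80, 16.59 and 17.82 in Con, and 58.27, 93.32 and 86.76 in Sa. In IMC it was 76.89, 56.75 and 100.59, and in IMA10 74.74, 88.79 and 28.53. Each busulfan library was above each Con library, with IMA10 replicate 3 the lowest of them. The log2 fold change was 2.15 ± 0.39 in Sa (SE, limma adjusted p = 0.00077), 2.12 ± 0.39 in IMC (0.000801) and 1.72 ± 0.39 in IMA10 (0.00329).

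Idi1 interconverts the isoprene units that later enzymes join. Con had 7.22, 18.61 and 12.89 FPKM, Sa 7.88, 12.53 and 13.20, IMC 10.75, 8.48 and 15.21, and IMA10 5.33, 9.99 and 16.03. The groups overlapped throughout, and the Con libraries alone spanned most of the range. The log2 fold changes against Con were -0.13 ± 0.42, -0.10 ± 0.42 and -0.31 ± 0.42 for Sa, IMC and IMA10 (limma adjusted p = 0.783, 0.826 and 0.516).

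Fdps joins isoprene units into farnesyl diphosphate, the branch point of the pathway. It had 54.20, 54.28 and 50.07 FPKM in Con, and 88.23, 125.10 and 97.11 in Sa. In IMC it had 63.11, 90.17 and 132.02, and in IMA10 77.77, 86.47 and 60. All busulfan libraries were above all Con libraries, IMA10 replicate 3 and IMC replicate 1 by the least. Fdps rose on the log2 scale by 0.94 ± 0.26 in Sa (limma adjusted p = 0.0083) and by 0.77 ± 0.26 in IMC (0.0214). In IMA10 it was 0.48 ± 0.26 (0.119), or 0.63 without replicate 3 (0.0418). The IMC call was lost without Con replicate 3 (adjusted p = 0.0612) or IMC replicate 3 (0.0915).

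Fdft1, squalene synthase, takes the first step that serves sterols only. Its FPKM was 142.56, 137.92 and 137.13 in Con, and 60.39, 58.80 and 50.61 in Sa. In IMC it was 46.52, 57.82 and 46.41, and in IMA10 28.64, 33.55 and 133.40. Of the 9 busulfan libraries 8 were far below Con, and IMA10 replicate 3 came close to it. The log2 fold change was -1.29 ± 0.46 in Sa (limma adjusted p = 0.0275), -1.46 ± 0.46 in IMC (0.0153) and -1.44 ± 0.46 in IMA10 (0.0175). Leaving that library out, these were -1.29, -1.46 and -2.13 (adjusted p = 2.19e-06, 8.06e-07 and 1.28e-07). With it in the fit, the Sa call was lost when any 1 of the 6 Con and Sa libraries was left out (adjusted p = 0.0523 to 0.0751), and with quantile normalization (0.0671). The IMA10 call was lost without IMA10 replicate 1 (0.0694) or 2 (0.0742).

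The end of the Fdft1 gene overlaps that of Ctsb, a lysosomal protease gene on the opposite strand, over 774 bases. Whether strand was used in counting is not given, and without it reads from this stretch cannot be told apart. Ctsb moved the other way, from between 17.36 and 24.19 FPKM in Con to between 199.14 and 301.32 in Sa. No other member overlaps a gene of the table.

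Sqle, squalene epoxidase, makes the first oxygenated intermediate. Con had 49.31, 48.69 and 43.36 FPKM and Sa had 34.20, 39.02 and 29.24. IMC had 22.54, 29.32 and 31.77, and IMA10 had 16.67, 21.40 and 49.30. Sa and IMC lay below Con in each library, and IMA10 replicate 3 lay within the Con range. Log2 fold changes were -0.46 ± 0.33 in Sa (limma adjusted p = 0.226), -0.75 ± 0.33 in IMC (0.0622) and -0.83 ± 0.33 in IMA10 (0.0455). In the fit without IMA10 replicate 3 all 3 passed, at -0.46, -0.75 and -1.27 (adjusted p = 0.0176, 0.00108 and 5.37e-05). With it in the fit, the IMA10 call was lost when any 1 other library was left out (adjusted p = 0.0544 to 0.173).

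Cyp51 removes the methyl group of lanosterol that lies at the core of the ring system. It had 19.84, 19.46 and 19.78 FPKM in Con, and 24.41, 41.09 and 33.56 in Sa. In IMC it had 18.57, 20.37 and 37.32, and in IMA10 27.77, 25.26 and 12.42. Con was the tightest group, Sa lay above it, IMC overlapped with it, and IMA10 replicate 3 was the lowest library of all. The log2 fold change was 0.69 ± 0.34 in Sa (limma adjusted p = 0.0904), 0.29 ± 0.34 in IMC (0.453) and 0.06 ± 0.34 in IMA10 (0.869). The Sa value passed without IMA10 replicate 3 (0.0253).

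Msmo1 oxidises the methyl groups that remain on the sterol ring. Con had 5.38, 5.82 and 5.88 FPKM, and Sa had 65.02, 100.09 and 92.32. IMC had 70.42, 71.50 and 104.78, and IMA10 had 100.55, 100.16 and 23.83. No busulfan library came near Con, and IMA10 replicate 3 was the closest at 23.83. The log2 fold change was 3.67 ± 0.47 in Sa (limma adjusted p = 0.000351), 3.61 ± 0.47 in IMC (0.000308) and 3.24 ± 0.47 in IMA10 (0.000911).

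Dhcr7 takes the last step of 1 arm of the pathway, and its loss in people causes Smith-Lemli-Opitz syndrome. Its FPKM was 5.65, 4.18 and 4.95 in Con and 51.64, 71.51 and 84.17 in Sa. In IMC it was 62.77, 67.69 and 88.33, and in IMA10 78.88, 66.71 and 18.12. The picture was that of Msmo1, with IMA10 replicate 3 between Con and the rest. The log2 fold change was 3.54 ± 0.46 in Sa (limma adjusted p = 0.000351), 3.63 ± 0.46 in IMC (0.000308) and 2.99 ± 0.46 in IMA10 (0.000935).

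The comparisons of IMC and IMA10 with Con share the Con libraries with the one of Sa. In IMC 4 enzymes rose (Hmgcs1, Fdps, Msmo1 and Dhcr7) and 1 fell (Fdft1), beside 50.8% of all genes higher and 23.3% lower. In IMA10 3 rose (Hmgcs1, Msmo1 and Dhcr7) and 2 fell (Fdft1 and Sqle), beside 47.7% and 23.9%. Median log2 fold changes of the members were 0.53 and 0.27, and those of all genes 0.52 and 0.41. Without IMA10 replicate 3 the counts were 4 and 2 in both, beside 53.7% higher and 32.2% lower in IMC and 51.6% and 35.0% in IMA10.

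Along the rest of the pathway, most genes rose in Sa, where 52.0% of all genes tested rose, 19.2% fell and the median was 0.60. Of the 5 other genes that lead to mevalonate and isoprene units, 3 rose and 0 fell (median log2 fold change 0.79). Acat2, which makes acetoacetyl-CoA, went from 4.88 ± 0.41 to 37.6 ± 4.97 FPKM. Mvd, which makes isopentenyl diphosphate, went from 2.64 ± 0.11 to 14.0 ± 1.07, and Mvk rose by 0.70 ± 0.19 on the log2 scale (limma adjusted p = 0.00835). Pmvk, the kinase that follows Mvk, stood at 0.79 ± 0.33 (0.053).

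Of the 9 other genes from lanosterol synthesis to cholesterol, 8 rose and 0 fell (median 2.17). The partners of Msmo1 in removing methyl groups, Nsdhl, Hsd17b7 and Erg28, rose by 2.01 ± 0.36, 2.17 ± 0.29 and 2.03 ± 0.28. Ebp, the sterol isomerase, went from 6.06 ± 0.27 to 88.2 ± 8.44 FPKM, and Lss, which closes the sterol rings, from 3.24 ± 0.42 to 11.7 ± 2.57. Sc5d, the desaturase, rose by 2.18 ± 0.34. The step after Cyp51 has a pair of reductases that differed. Tm7sf2 was listed at 0.34, 0 and 0 FPKM in Con and at 4.07 to 12.9 in Sa, and Lbr, which also anchors chromatin to the nuclear envelope, was at 7.98 ± 0.45 and 11.9 ± 2.17 (log2 fold change 0.51 ± 0.38, limma adjusted p = 0.236). Without IMA10 replicate 3 Pmvk (0.00135) and Lbr (0.0485) passed too.

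**Figure D2:**
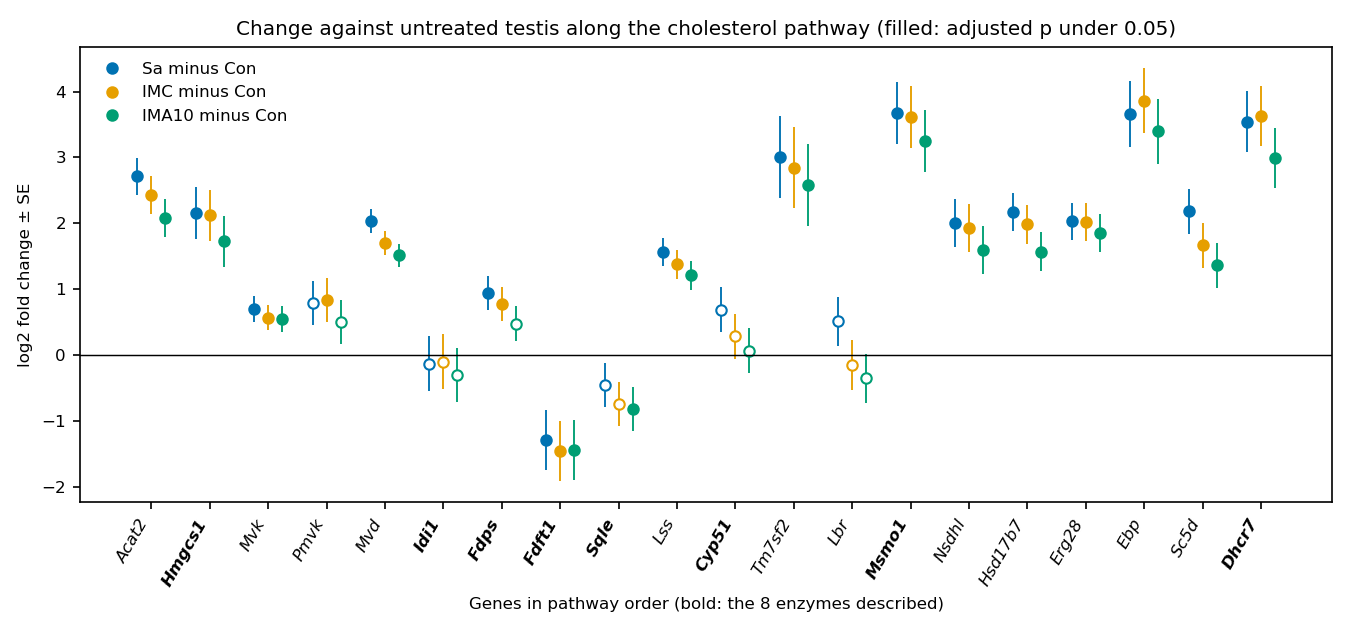
Log2 fold change against Con with its SE (vertical axis) for 20 pathway genes in pathway order (horizontal axis), in Sa, IMC and IMA10; filled points have a limma adjusted p under 0.05 and bold names are the 8 enzymes. Values lie above 1 for Acat2, Hmgcs1 and Mvd, fall to -1.29 in Sa at Fdft1, and are above 1 for every late gene but Cyp51 and Lbr.

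In the fit of all 12 libraries, Idi1, Fdft1, Sqle, Cyp51 and Lbr were among the pathway genes that rose in neither Sa nor IMC. FPKM is a share of the library, and the summed FPKM of 14 elongating spermatid markers was 46960 to 49458 in Con, 5134 in IMA10 replicate 3 and 109 to 2749 in the other busulfan libraries. With median-of-ratios scaling, which lowered the all-gene median of Sa minus Con from 0.60 to -0.02, the split of all genes became 37.7% higher and 39.2% lower. The members then read 1.38 for Hmgcs1, 0.15 for Fdps (limma adjusted p = 0.59), -2.08 for Fdft1, -1.25 for Sqle (0.0116), -0.09 for Cyp51, 2.94 for Msmo1 and 2.82 for Dhcr7. The rise of Fdps thus depends on the scaling, and the direction of Cyp51 turns with it. With quantile normalization the split was 36.8% and 29.2%.

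A factor applied to a whole library nearly cancels in ratios between neighbouring members. As log2 differences within a library, Msmo1 to Cyp51 was -1.71, -1.59 and -1.60 in Con and 1.38, 1.26 and 1.43 in Sa, a change of 2.99. In IMC it was 1.87, 1.76 and 1.47, and in IMA10 1.82, 1.95 and 0.89. These neighbouring steps switched order in every busulfan library, IMA10 replicate 3 included. Fdft1 to Fdps changed by -2.23 in Sa, from 1.38 ± 0.05 to -0.85 ± 0.28, and Idi1 to Hmgcs1 by -2.29, from -0.44 ± 0.59 to -2.72 ± 0.09. Cyp51 to Sqle changed by 1.15, Fdps to Idi1 by 1.07 and Sqle to Fdft1 by 0.83. Dhcr7 to Msmo1 was alike in both groups, at -0.18 ± 0.23 and -0.31 ± 0.17 (exact two-sided permutation p = 0.5). The other 6 had an exact permutation p = 0.1, the smallest that 3 libraries against 3 allow, and 0.2333 after adjustment over the 35 ratio comparisons made.

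Related enzymes outside the pathway were measured as well. Acat1, the mitochondrial thiolase, went from 14.5 ± 0.24 FPKM in Con to 65.9 ± 11.6 in Sa. Idi2 was at most 0.16 FPKM in any library, so Idi1 made up nearly all of that pair. All 7 tested genes of such isozymes, branches and electron donors rose in Sa, with a median of 1.77, beside 52.0% of all genes and their median of 0.60.

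Genes that control the pathway were listed by role. Of 13 tested genes on the list of sterol regulators, 10 rose and 1 fell in Sa, beside 52.0% and 19.2% of all genes. Srebf2, which encodes the main activator of the pathway, went from 8.02 ± 1.03 to 31.9 ± 1.99 FPKM, its escort Scap from 6.09 ± 0.57 to 59.1 ± 9.37, and Insig1, which holds both back when sterols are plentiful, from 3.94 ± 0.33 to 17.3 ± 0.56. The gene that fell, Ubxn8, went from 22.1 ± 1.38 to 10.5 ± 0.67. It encodes an adaptor protein of the endoplasmic reticulum, and its place on the list is unsure. Of 6 regulators of late germ cell transcription, 0 rose and 4 fell. Without IMA10 replicate 3, 5 fell, beside 30.0% of all genes. Creb3l4 went from 230 ± 2.63 to 22.1 ± 8.45 FPKM, Fhl5, a CREM coactivator, from 133 ± 14.8 to 10.5 ± 5.09, and Sox30 from 102 ± 4.82 to 15.8 ± 5.71. Crem itself, which is also on the round spermatid list, went from 72.7 ± 3.38 to 17.4 ± 3.96 (limma adjusted p = 0.0291). Ubxn8 and Crem were members of their lists already, but were picked for naming after their values were seen. Over the same libraries Cyp51 was at 19.7 ± 0.20 and 33.0 ± 8.35.

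Cholesterol use and transport moved as follows. All 10 steroidogenic genes rose in Sa (median 3.27), with Cyp17a1, which makes androgen precursors, going from 94.1 ± 19.4 to 1033 ± 423 FPKM. Nr5a1, which encodes a regulator of steroidogenic genes, went from between 7.35 and 9.17 FPKM to 107 ± 13.5. Of 17 genes for uptake, storage, transport and export of cholesterol, 15 rose and 1 fell, beside 52.0% and 19.2% of all genes. The one that fell was Lipe, hormone-sensitive lipase, from 147 ± 5.08 to 11.5 ± 3.13 FPKM.

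The same libraries differed widely in cell markers. In Sa against Con all 20 Sertoli cell markers and 7 of 8 Leydig cell markers were higher, as were all 10 macrophage markers. Over all genes 52.0% were higher and 19.2% lower. Without IMA10 replicate 3 all 8 Leydig cell markers passed, beside 55.7% of all genes higher. In the fit of all 12 libraries, 3 of 12 pachytene spermatocyte markers were lower, as were 10 of 12 round spermatid markers and 14 of 14 elongating spermatid markers. The germ cell lists did not all fall. Among 11 tested markers of spermatogonia, 9 were higher and 0 lower in Sa, with a median log2 fold change of 1.415. Without IMA10 replicate 3, 9 of them were higher and 1 lower. Summed Sertoli marker levels were 774 to 911 FPKM in Con, 3877 in IMA10 replicate 3 and 11818 to 22838 in the other busulfan libraries. Round spermatid sums were 4423 to 4715, 1814 and 44.2 to 613 FPKM in the same order, and pachytene sums 4596 to 4628, 4232 and 135 to 1622. No marker of these 3 lists or of the elongating list was at 0 in any library, and of the 4 epididymis markers Adam7, Crisp1 and Defb20 were at 0 in at least 1. On the Leydig list, Cyp2a5 was at 0 in at least 1 library. In bulk tissue fewer cells of a type and less RNA per cell cannot be told apart, and the part of cell makeup in the enzyme changes was not tested.

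**Figure D3:**
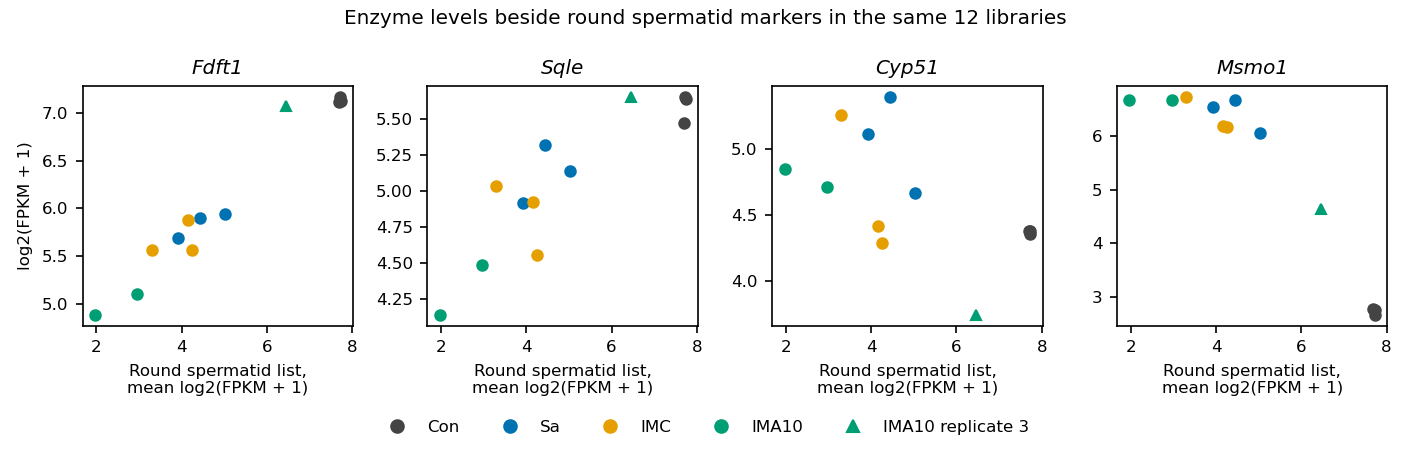
Log2(FPKM + 1) of Fdft1, Sqle, Cyp51 and Msmo1 (vertical axes, not starting at 0) against the mean log2(FPKM + 1) of 12 round spermatid markers (horizontal axes), 1 point per library, coloured by group. The Con libraries lie at 7.69 to 7.73 on the marker axis, IMA10 replicate 3 at 6.45 and the others at 1.97 to 5.02; Fdft1 is high where the markers are high and Msmo1 is low there.

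Set against marker levels in the same library, the members differed. These are differences of log2(FPKM + 1) to a list's mean, given as a description. Msmo1 and Dhcr7 kept nearly the same distance to the Sertoli list, with shifts of 0.16 and 0.03 between Con and Sa, and 0.54 and 0.41 to the steroidogenic list. Hmgcs1 shifted by -1.36 and -0.98. To the Leydig list, which holds no gene of steroid synthesis, the order was another: Hmgcs1 shifted by -0.01 (-0.39 with a pseudocount of 0.1), Msmo1 by 1.51 and Dhcr7 by 1.38. That list's mean includes Cyp2a5 (at most 0.04 FPKM) and Hsd11b1 (at most 1.28). Both failed the filter and hold the list's rise down. Shifts without them were not computed, so no match of Hmgcs1 to Leydig cell genes can be read from the small value. Fdft1 shifted by 0.06 to the pachytene list and by 1.97 to the round spermatid list, and Sqle by 0.89 and 2.80. Fdft1 to the pachytene list was 0.24 to 0.42 in Con, 0.07 to 0.68 in Sa, 0.18 to 1.15 in IMC and 0.24 to 2.12 in IMA10. The pachytene mean mixes unlike changes, as 2 genes picked as examples show. Ldhc was at 2476 to 2528 FPKM in Con and 450 to 820 in Sa, and Sycp3 at 63.1 to 79.8 and 38.2 to 87.0. No match of Fdft1 to spermatocyte genes can thus be read from its small shift. Cyp51 held to neither side, at -2.82 to the Sertoli list and 2.03 to the pachytene list.

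The members were also compared by likeness of profile, the root mean square difference of centred log2(FPKM + 1) values over the 12 libraries, which share the group means and 1 atypical library. Among the members Msmo1 and Dhcr7 were closest at 0.17, then Fdps and Cyp51 at 0.26 and Fdft1 and Sqle at 0.38. Fdft1 and Msmo1 were farthest apart at 2.35. The 10624 other genes compared reached a group mean of at least 5 FPKM and had a symbol that is not a predicted one. Among them, those nearest to Dhcr7 were Fads2 (0.09), a desaturase of polyunsaturated fatty acids, and Acaa2 (0.10), a mitochondrial thiolase. Those nearest to Msmo1 were Acsbg1 (0.13), an acyl-CoA synthetase, and Fads2 (0.14). Nearest to Fdft1 were Pdk2 (0.10), a kinase of pyruvate dehydrogenase, and Aspscr1 (0.11), and nearest to Sqle Whrn (0.13) and Hoxd8 (0.15). Hmgcs1 was nearest to Cflar (0.11) and Rtn4rl1 (0.11), Fdps to Smoc1 (0.14) and Zmat5 (0.16), and Cyp51 to Glul (0.22), glutamine synthetase, and Mgmt (0.24). In Con, Cflar was at 0.54 to 0.79 FPKM and Rtn4rl1 at 1.42 to 1.69. The added 1 FPKM damps the changes of such low genes, and their likeness to Hmgcs1 rests partly on it. Idi1 had no close neighbour, the nearest being Cbx5 at 0.32.

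Among the busulfan groups no enzyme passed the test in any of the 3 comparisons (limma, 12 libraries). This holds for 0% of all genes in either direction in IMC minus Sa, IMA10 minus Sa and IMA10 minus IMC, where 134, 928 and 328 genes had an unadjusted p under 0.05. Log2 fold changes of the members in IMC against Sa ran from -0.40 ± 0.34 for Cyp51 to 0.09 ± 0.46 for Dhcr7. In IMA10 against Sa they ran from -0.62 ± 0.34 for Cyp51 to -0.15 ± 0.46 for Fdft1, and in IMA10 against IMC from -0.64 ± 0.46 for Dhcr7 to 0.02 ± 0.46 for Fdft1. The lack of a call does not show that the groups were alike. Fdps was lower in each IMA10 library (60 to 86.47 FPKM) than in each Sa library (88.23 to 125.10), with a limma adjusted p = 0.931. It was picked for naming after its values were seen, and the other members overlapped between IMA10 and Sa. How often other genes lie apart in this way was not computed, so no difference can be read from it.

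**Figure D4:**
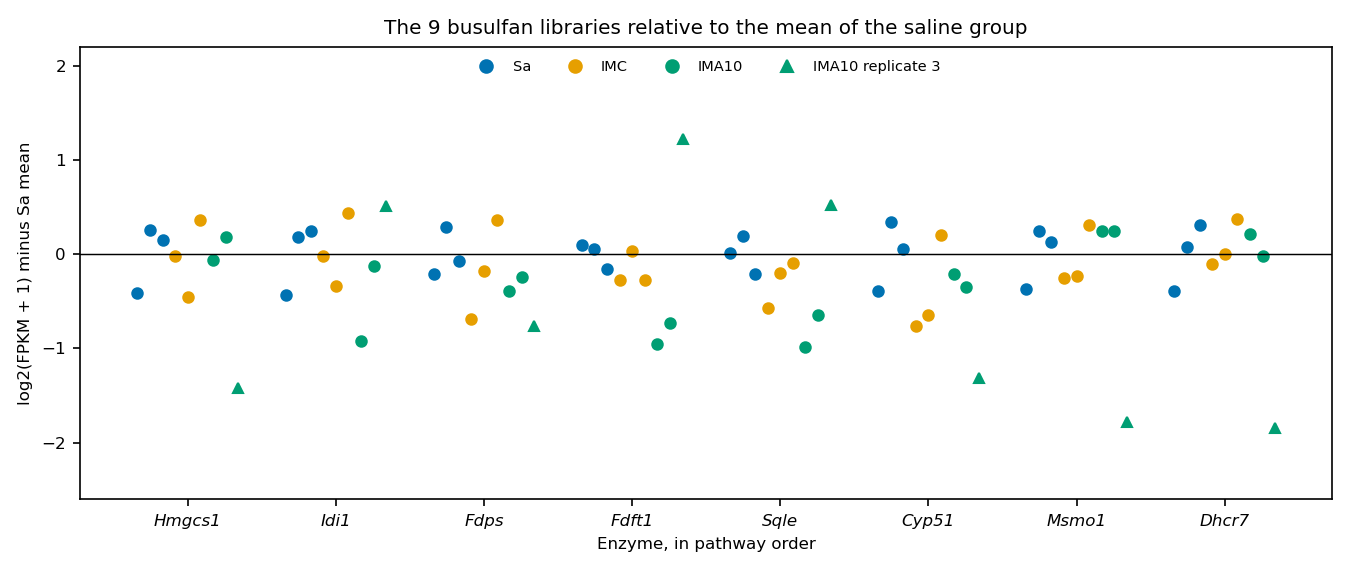
Log2(FPKM + 1) of each enzyme (horizontal axis, pathway order) in the 9 busulfan libraries minus the mean of the 3 Sa libraries (vertical axis); the triangle is IMA10 replicate 3. For Fdft1 and Sqle the other IMA10 libraries lie lowest and IMA10 replicate 3 highest. IMA10 replicate 3 also lies highest for Idi1, by little, and lowest for Hmgcs1, Fdps, Cyp51, Msmo1 and Dhcr7.

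Without IMA10 replicate 3 the picture was other for a pair of enzymes. Fdft1 was lower in IMA10 (28.64 and 33.55 FPKM) than in Sa (50.61 to 60.39), with a log2 fold change of -0.84 ± 0.12 (limma adjusted p = 0.0136), and Sqle was lower at -0.81 ± 0.17 (0.0136). The other 6 did not pass, so 0 rose and 2 fell, beside 7.38% of all genes higher and 24.7% lower. Of the 14 other pathway genes 2 were lower, Lbr (-1.33, adjusted p = 0.0136) among them, and 1 was higher, Ebp (0.50, 0.0159). All 12 round spermatid markers, 10 of 12 pachytene markers and 6 of 6 germ cell regulators were lower in the same contrast, and 18 of 20 Sertoli markers were higher. Their part in the result was not tested. With all 3 libraries, Fdft1 in IMA10 spanned 28.64 to 133.40 FPKM and Sqle 16.67 to 49.30, wider than all of Sa and IMC together.

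Among busulfan groups the step ratios were compared with Sa. Msmo1 to Cyp51 was higher in each IMC library than in each Sa library, by 0.34 on the log2 scale (exact two-sided permutation p = 0.1, adjusted 0.2333). Of the 7 ratios this was the 1 in which IMC and Sa libraries did not overlap. With all 3 IMA10 libraries 0 of 7 ratios lay apart from Sa, and without replicate 3 the count was 4 of 7. Msmo1 to Cyp51 was then 1.82 and 1.95 in IMA10, beside 1.26 to 1.43 in Sa, a difference of 0.52. Cyp51 to Sqle was 0.70 and 0.23, beside -0.47 to 0.19 (0.54). Fdft1 to Fdps was -1.41 and -1.34, beside -1.08 to -0.54 (-0.53), and Idi1 to Hmgcs1 was -3.58 and -3.03, beside -2.80 to -2.63 (-0.58). IMA10 replicate 3 lay on the other side of Sa in all 4, so the differences with it were 0.19, -0.26, 0.31 and 0.25. Groups with fewer libraries lie apart more easily by chance, and some of these ratios share a member. How often ratios of other genes lie apart was not computed, and these counts were not tested. Idi1 to Hmgcs1 was tight in IMC (-2.66 ± 0.06) and Sa (-2.72 ± 0.09) and wide in Con (-0.44 ± 0.59) and IMA10 (-2.47 ± 1.48).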

How the data were processed

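RNA sequencing of 12 testis libraries was analysed from 1 table of FPKM values that the authors deposited, with 2 decimals and 1 column per library, per the file headers. The aligner, the counting program, its strand setting, the genome build and the annotation: not given in the sources used here. The table holds no counts, so depth and counting error are unknown. Groups come from the sample labels. Of 20288 numeric Gene IDs, 20141 were given symbols through a RefSeq gene table (GRCm38.p6).

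Values were taken as log2(FPKM + 1), and the 15472 of 22221 genes that reached 1 FPKM in 3 or more libraries were fitted with limma 3.58.1 (R 4.3.3), all 12 libraries in 1 fit with a variance trend. Adjusted p-values are Benjamini-Hochberg over all genes, called under 0.05. The added 1 FPKM understates changes of low genes. Step ratios were compared by exact two-sided permutation in SciPy 1.17.1. The limma fit was tested on simulated data, and the permutation test on made-up cases with known answers. The text may name every member, every gene of the mevalonate and sterol lists, the 3 genes with the smallest p and the one with the highest level in other lists, and the 2 genes most like each member. Some genes under this rule are not reported here; counts and medians of lists include them. Members and lists were chosen with earlier results of these data known. Alternatives were 2 scalings, a pseudocount of 0.1, no filter or 5 FPKM, fits of 2 groups, a replicate term and leaving out each library.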

Additional observations from a re-analysis of the deposited data

How the results depend on the processing

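The rises of Hmgcs1, Msmo1 and Dhcr7 against Con kept their direction and call in all 3 comparisons under every alternative run, and so did the fall of Fdft1 in IMC. Counts of falls were small and moved easily. For enzymes lower, Sa minus Con gave 1, but 2 with median-of-ratios scaling or only the 2 groups compared, 0 with quantile normalization, and 0 to 2 with a library left out. IMC minus Con gave 1, but 2 with that scaling or 2 groups, and 1 to 2 with a library left out. IMA10 minus Con gave 2, but 1 with quantile normalization, no filter or the replicate block, 0 with 2 groups, and 0 to 2 with a library left out. IMA10 minus Sa gave 0, and 0 to 2 with a library left out. For the 14 other pathway genes lower, the count was 0 in each, but 1 with median-of-ratios scaling in all 3 comparisons with Con, and 1 in IMC with quantile normalization or 2 groups. With a library left out it was 0 to 1 in IMC, 0 to 2 in IMA10 and 0 to 2 in IMA10 minus Sa (0 to 1 higher).

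Other values changed sign, none of them past the threshold in the 12 libraries. Not all were near 0 in that fit: Dhcr7 was at -0.64 in IMA10 minus IMC and Fdps at 0.48 in IMA10 minus Con. With median-of-ratios scaling the sign turned for Cyp51 (-0.086) in Sa minus Con, for Cyp51 (-0.406) in IMC minus Con, for Fdps (-0.077) and Cyp51 (-0.476) in IMA10 minus Con, for Hmgcs1 (0.048) and Msmo1 (0.02) in IMC minus Sa, for Idi1 (0.046) and Fdft1 (0.085) in IMA10 minus Sa, for Sqle (0.077) in IMA10 minus IMC. With quantile normalization the sign turned for Cyp51 (-0.091) in IMA10 minus Con, for Idi1 (0.107) in IMA10 minus Sa, for Idi1 (0.003) and Fdft1 (-0.003) in IMA10 minus IMC, for Fdft1 to Fdps (0.013) in IMC minus Sa. With 1 library left out, log2 values that crossed 0 had these ranges. In Sa minus Con the fold change ran from -0.466 to 0.161 for Idi1. In IMC minus Con the fold change ran from -0.439 to 0.189 for Idi1 and -0.017 to 0.468 for Cyp51. In IMA10 minus Con the fold change ran from -0.649 to 0.065 for Idi1 and -0.14 to 0.41 for Cyp51. In IMC minus Sa the fold change ran from -0.24 to 0.174 for Hmgcs1, -0.187 to 0.208 for Idi1, -0.435 to 0.092 for Fdps, -0.247 to 0.06 for Msmo1 and -0.104 to 0.244 for Dhcr7. In IMA10 minus Sa the fold change ran from -0.738 to 0.064 for Hmgcs1, -0.519 to 0.195 for Idi1, -0.844 to 0.247 for Fdft1, -0.769 to 0.247 for Msmo1 and -0.934 to 0.097 for Dhcr7. In IMA10 minus IMC the fold change ran from -0.704 to 0.098 for Hmgcs1, -0.546 to 0.168 for Idi1, -0.672 to 0.419 for Fdft1, -0.524 to 0.231 for Sqle, -0.425 to 0.125 for Cyp51, -0.707 to 0.309 for Msmo1 and -1.023 to 0.008 for Dhcr7. In IMA10 minus Sa the step ratio ran from -0.583 to 0.81 for Idi1 to Hmgcs1, -0.696 to 0.202 for Fdps to Idi1, -0.528 to 0.747 for Fdft1 to Fdps, -0.364 to 0.032 for Sqle to Fdft1, -0.77 to 0.535 for Cyp51 to Sqle and -0.005 to 0.524 for Msmo1 to Cyp51. In IMC minus Sa the step ratio ran from -0.37 to 0.039 for Fdps to Idi1, -0.213 to 0.315 for Fdft1 to Fdps and -0.317 to 0.048 for Cyp51 to Sqle. In IMC minus Con the step ratio ran from -0.087 to 0.141 for Dhcr7 to Msmo1.

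A replicate block, the number in the labels as a term in the fit, ended 1 enzyme call against Con, Sqle in IMA10 (log2 fold change -0.826, limma adjusted p = 0.0597), and changed no other. The numbers do not pair samples: 18 same-number pairs had correlations of deviations from -0.765 to 0.546 (median -0.058), and 1 of 12 libraries correlated best with its own number. The rises of Fdps lost their call with median-of-ratios scaling, at 0.149 in Sa and 0.062 in IMC (adjusted p = 0.59 and 0.822). In IMA10 the fall of Fdft1 was lost with 2 groups (0.0859), and that of Sqle with 2 groups (0.138), quantile normalization (0.0504) or no filter (0.0558). The cause of these changes was not tested. The 15 shifts relative to marker lists that were recomputed kept their sign with a pseudocount of 0.1, but to the Leydig list that of Hmgcs1 moved from -0.008 to -0.392 and that of Msmo1 from 1.512 to 1.263. Depth is unknown, so no limit of detection can be given.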
